A study of Mus musculus with 4 samples.

Results

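The genes examined here encode regulators of the anaphase promoting complex (APC/C) and kinases and adaptors of the spindle assembly checkpoint. They are Fzr1, Cdc20, Fbxo43, Mad2l1, Bub1, Bub1b, Ttk, Aurka, Aurkb and Aurkc, which were taken by name from a table of 25587 genes and were all found, each in 1 row. The APC/C is a ubiquitin ligase that marks securin and B-type cyclins for destruction and so starts anaphase. Its coactivators CDC20 and FZR1 bring substrates to it, and the checkpoint holds CDC20 inactive while kinetochores lack spindle microtubules. In oocytes, which wait in prophase of meiosis I while they grow, FZR1 keeps cyclin B low during the arrest, and FBXO43 (EMI2) blocks the APC/C later, at metaphase of meiosis II.

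RNA-Seq libraries of oocytes from wild-type C57BL/6 (C57BL/6Babr) mice were compared, with 1 library per stage and no treatment. Non-growing oocytes (NGOs) came from mice at 5 days post partum (dpp) and measured 10 to 40 µm. Growing oocytes of 25 to 70 µm from mice at 8 to 14 dpp (GO1) and of 50 to 70 µm from mice at 15 dpp (GO2) formed the next stages, and fully grown oocytes (FGOs) of over 70 µm came from mice at 20 dpp. The size ranges of NGOs and GO1 overlap, as do those of GO1 and GO2, and every library was made from oocytes pooled from several animals, so spread between animals was not measured. Ribosomal RNA was removed from total RNA with Ribo-Zero, and no selection for poly(A) tails was made. NGO and FGO libraries were made by reverse transcription with SuperScript III and dUTP marking of the second strand, and GO1 and GO2 libraries with the ScriptSeq v2 kit. Stage and library protocol therefore cannot be told apart between these pairs, and log2 changes are given only from NGO to FGO and from GO1 to GO2. Levels that are set side by side across these pairs also differ in protocol.

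On GRCm38, the table places Bub1 (chr2:127801122-127831865, minus strand), Bub1b (chr2:118598211-118641591, plus strand) and Aurka (chr2:172356190-172370535, minus strand) on chromosome 2. The other genes are spread over the genome, Cdc20 (chr4:118432901-118437352, minus strand), Mad2l1 (chr6:66535390-66541033, plus strand), Aurkc (chr7:6995443-7002945, plus strand), Ttk (chr9:83834689-83872390, plus strand), Fzr1 (chr10:81366222-81378516, minus strand), Aurkb (chr11:69045647-69051664, plus strand) and Fbxo43 (chr15:36150060-36164884, minus strand). The deposited unit is RPKM, in which reads are divided by exon length and by a total for the library, which allows levels to be compared between genes. Counts recovered from these values added up to 61501301 in NGOs, 71668024 at GO1, 132671629 at GO2 and 68837411 in FGOs. The exon length behind a count was the smallest that gave whole counts for 9950 genes, against 9533 with the exon union in GENCODE, and for 125 genes no length did, so that the sums may be too small and the minimum counts used here may be stricter for some genes than for others. The 10 genes had between 560 counts (Aurkc in NGOs) and 152990 counts (Bub1b at GO2), so all of them passed the minimum of 20 counts in both pairs. Intervals in the text are 95% intervals from these counts (Poisson for levels, a normal approximation on the log scale for ratios and changes) and cover counting error only. Relative to the level, the widest were those of Aurkc in NGOs, at 5.34 RPKM (4.91 to 5.80), and of Aurkb at GO1, at 2.39 RPKM (2.24 to 2.56). The sums above exceed the number of reads sequenced for each library, so reads or read pairs entered the counts more than once and the intervals are too narrow, by a factor that is not known. They do not measure the spread between oocyte pools. Among genes with 1 to 12 counts and a length from the annotation, odd numbers made up 73.7% in NGOs and 73.8% in FGOs, against 60.5% at GO1 and 59.7% at GO2. Reads are not independent molecules, and the reason for this difference was not tested.

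The label of the samples was checked on marker genes. All 10 oocyte markers were detected in every library, with a summed level of 6288 RPKM in NGOs, 4011 at GO1, 3919 at GO2 and 3934 in FGOs, and Zp2, a zona pellucida gene, was the most abundant. The 8 granulosa cell markers summed to 2.35 RPKM in NGOs, 2.45 at GO1, 5.10 at GO2 and 10.7 in FGOs, led in FGOs by the aromatase gene Cyp19a1 at 6.08 RPKM, while Foxl2 stood at 0.0265 RPKM there. The 7 stroma and theca markers summed to 5.72 RPKM in NGOs and to 0.229, 0.263 and 0.245 RPKM at GO1, GO2 and FGOs, with Col1a1 the most abundant in NGOs at 2.24 RPKM, and Acta2 was at 0 both at GO2 and in FGOs. Of the 6 with enough counts, 5 fell by 4-fold or more from NGO to FGO, against 5.51% over all genes tested. Pdgfra did not fall beyond counting error, at 0.189 RPKM in NGOs and 0.151 in FGOs. It was the most abundant of these markers in all libraries but that of NGOs. The 5 blood and immune markers summed to 3.55 RPKM in NGOs, 5.70 at GO1, 8.87 at GO2 and 10.04 in FGOs. Pecam1 was the most abundant of them, at 1.74 RPKM in NGOs and 9.70 in FGOs, and the globin gene Hbb-b1 was at 0 in all libraries but that of NGOs. The rise of the sum came from Pecam1, since the other markers were lower in FGOs than in NGOs. Hba-a1 went from 0.902 to 0 RPKM, Cd68 from 0.626 to 0.326 and Ptprc, within counting error, from 0.0192 to 0.0162. Somatic cells also transcribe cell division genes, and the part of such cells in the values given here was not tested. In bulk RNA, fewer cells of a type and less RNA per cell cannot be told apart.

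From NGO to FGO none of the 10 genes changed by 4-fold or more in either direction, a size at which 8.57% of the 15245 genes tested rose and 5.51% fell. At 2-fold, Bub1b and Fbxo43 rose and none fell, that is 2 of 10 rising against 17.7% over all genes, a share close to the background, and 0 of 10 falling against 16.7%. The 10 genes had a median log2 change of 0.60, compared with -0.01 over all genes, and 7 of the 10 lay above 0 (8 when libraries are scaled by the median of ratios, which turns the sign of Bub1). When libraries are scaled by their totals, Bub1b rose and Aurkb fell by 2-fold, and Fbxo43 was just below it. Over all genes, 16.3% then rose and 19.0% fell by 2-fold. From GO1 to GO2 none of the 10 changed by 2-fold, while 6.88% of the 15726 genes tested rose and 2.85% fell by that much, and 1.51% and 0.254% rose and fell by 4-fold. The median log2 change of the 10 genes was then 0.07, and 0.02 over all genes.

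**Figure D1:**
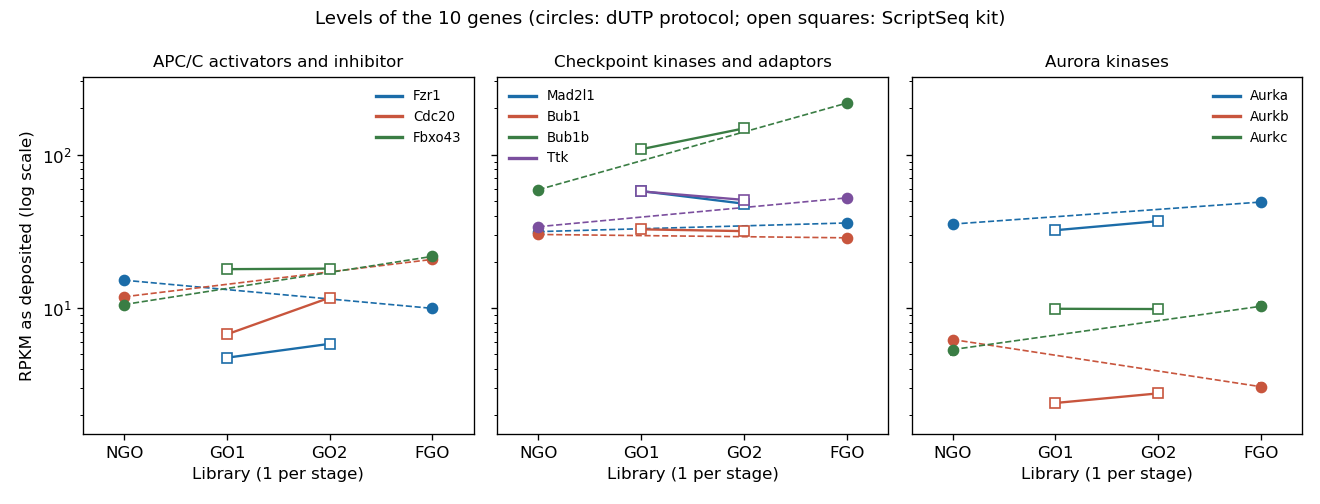
RPKM of the 10 genes (log axis) in the 4 libraries, 1 library per stage, with circles for the dUTP protocol, open squares for the ScriptSeq kit and bars for the 95% counting interval, mostly smaller than the symbols. Lines join libraries of the same protocol, and Bub1b is the highest gene in every library, from 59.1 RPKM in NGOs to 217 in FGOs.

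Of the APC/C coactivators, Cdc20 acts at the onset of anaphase. Its level was 11.8 RPKM in NGOs, 6.72 at GO1, 11.6 at GO2 and 20.7 in FGOs. It was therefore highest in FGOs and lowest at GO1, and higher in the later library of both pairs, with a log2 change of 0.86 (interval 0.79 to 0.93) from NGO to FGO and of 0.76 (0.68 to 0.84) from GO1 to GO2. Neither change reached 2-fold, but from GO1 to GO2 Cdc20 stood above 89.7% of all genes tested. Fzr1, which encodes the coactivator that works during the prophase arrest, was at 15.1 RPKM in NGOs, 4.73 at GO1, 5.82 at GO2 and 9.92 in FGOs. It was highest in NGOs, and its log2 change was -0.56 (-0.61 to -0.51) from NGO to FGO and 0.27 (0.20 to 0.33) from GO1 to GO2. The order of the coactivators differed between libraries. The ratio of Cdc20 to Fzr1 in RPKM was 0.780 (0.745 to 0.816) in NGOs, 1.42 (1.34 to 1.51) at GO1, 2.001 (1.93 to 2.08) at GO2 and 2.09 (2.01 to 2.17) in FGOs, so Fzr1 was the higher of the pair in NGOs and Cdc20 in the other libraries.

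Fbxo43, the APC/C inhibitor of the arrest at metaphase of meiosis II, had 10.5 RPKM in NGOs, 17.9 at GO1, 18.0 at GO2 and 21.7 in FGOs. The NGO library was the low one, and the growing stages were alike, with a log2 change of -0.02 (-0.06 to 0.01) from GO1 to GO2. From NGO to FGO Fbxo43 rose by 1.10 on the log2 scale (1.05 to 1.15). Its relative Fbxo5 (EMI1), which restrains the APC/C during prophase, was more abundant in every library, at 26.6, 30.4, 33.7 and 40.04 RPKM in NGOs, GO1, GO2 and FGOs. The ratio of Fbxo5 to Fbxo43 was 2.53 (2.43 to 2.63) in NGOs and 1.85 (1.80 to 1.90) in FGOs.

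Among the checkpoint genes Bub1b stood out by its level. It encodes BUBR1, a part of the mitotic checkpoint complex that binds CDC20, and it was at 59.1 RPKM in NGOs, 108 at GO1, 148 at GO2 and 217 in FGOs. Its level was thus higher at each later stage, and it was the most abundant of the 10 genes in every library, at percentile 97.3 of detected genes in NGOs and 99.5 in FGOs. From NGO to FGO Bub1b rose by 1.93 on the log2 scale (1.91 to 1.95), a fold of 3.81, just under 4, and from GO1 to GO2 its log2 change was 0.42 (0.40 to 0.43).

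Bub1, the gene of a kinase that brings BUBR1 to the kinetochore, was the steadiest of the 10. It had 30.1 RPKM in NGOs, 32.5 at GO1, 31.7 at GO2 and 28.6 in FGOs, and its highest level was 1.14 times its lowest. Its log2 change was -0.02 (-0.05 to 0.01) from NGO to FGO. The ratio of Bub1b to Bub1 in RPKM went from 1.96 (1.92 to 2.001) in NGOs to 3.33 (3.28 to 3.39) at GO1, 4.68 (4.63 to 4.74) at GO2 and 7.57 (7.44 to 7.70) in FGOs. This ratio was higher in the later library of both protocols.

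Mad2l1 encodes MAD2, the protein that closes around CDC20 to keep it from the APC/C. It was at 31.4 RPKM in NGOs, 57.8 at GO1, 47.8 at GO2 and 35.8 in FGOs. The growing stages were the high ones, and the log2 change was 0.24 (0.20 to 0.28) from NGO to FGO and -0.31 (-0.34 to -0.28) from GO1 to GO2. Ttk, the gene of the kinase MPS1 that starts checkpoint signalling, had 33.8 RPKM in NGOs, 57.5 at GO1, 50.6 at GO2 and 52.2 in FGOs. NGOs were the low library, with a log2 change of 0.68 (0.64 to 0.71) to FGOs, whereas from GO1 to GO2 it was -0.22 (-0.24 to -0.19). Mad2l1 and Ttk did not differ beyond counting error at GO1. The exon length recovered for Mad2l1 is 2203 bases, against an exon union of 8390 bases in GENCODE, and that for Ttk is 2904 against 4919 bases, so their levels relative to other genes depend on the annotation.

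The Aurora kinases share a catalytic fold and act at different places. Aurka, whose product works at spindle poles, was the most abundant of them at every stage, with 35.2 RPKM in NGOs, 32.1 at GO1, 36.8 at GO2 and 49.0 in FGOs. FGOs were the high library, and the log2 change was 0.53 (0.49 to 0.57) from NGO to FGO and 0.16 (0.13 to 0.20) from GO1 to GO2. Aurkb, the catalytic subunit of the chromosomal passenger complex in dividing somatic cells, was at 6.21 RPKM in NGOs, 2.39 at GO1, 2.76 at GO2 and 3.06 in FGOs. NGOs were the high library, and Aurkb was the lowest of the 10 genes in the other libraries. Aurkc, its close relative that is expressed mainly in germ cells, had 5.34 RPKM in NGOs, 9.86 at GO1, 9.82 at GO2 and 10.2 in FGOs. Here NGOs were the low library.

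From NGO to FGO the log2 change was -0.97 for Aurkb (-1.08 to -0.86) and 0.99 for Aurkc (0.84 to 1.14), and both intervals include 2-fold. The ratio of Aurkc to Aurkb was 0.860 (0.783 to 0.945) in NGOs and 4.12 (3.78 to 4.49) at GO1, 3.55 (3.34 to 3.77) at GO2 and 3.35 (3.08 to 3.64) in FGOs. Aurkc was the higher of the pair in all libraries but that of NGOs. There the interval was 0.754 to 0.982 with counts divided by 2 and 0.713 to 1.04, which includes 1, with counts divided by 4, as if each fragment had been counted 4 times. The ratio also rests on the exon length of Aurkc, recovered as 948 bases against an exon union of 1523 bases. Of the stretches of 100 bases in Aurkc transcripts, 36.8% also occur in other annotated transcripts, mostly in the processed pseudogene Gm12463, which is not listed in the table, so the levels of Aurkc are uncertain where reads fit both places. For Cdc20 the share was 1.52% and for the other 8 genes 0. Exons of Cdc20 overlap the gene Elovl1 on the opposite strand over 53 bases, and those of Fzr1 overlap Mfsd12 over 4 bases.

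**Figure D2:**
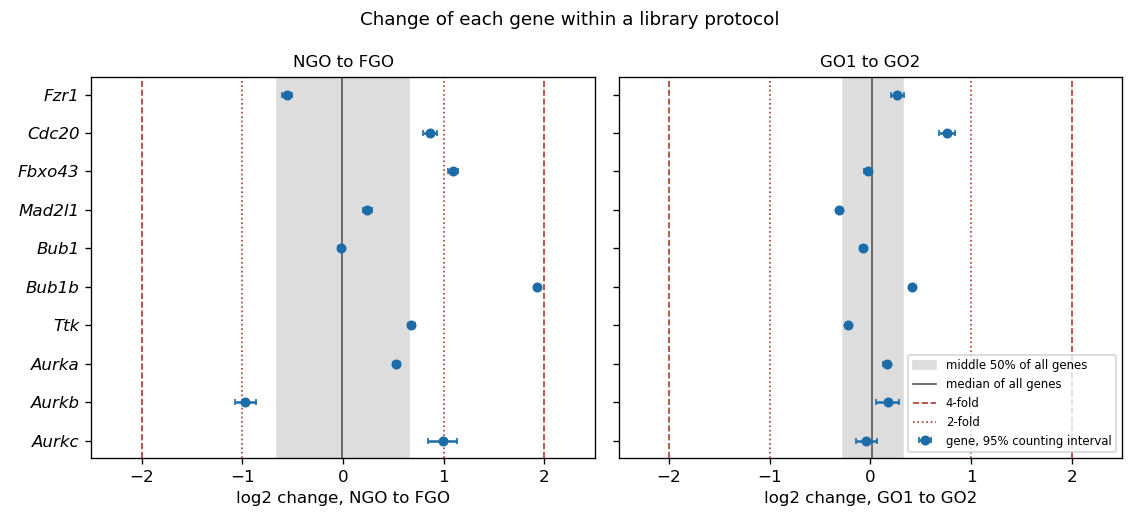
Log2 change of each gene from NGO to FGO and from GO1 to GO2, with 95% counting intervals, the middle 50% and the median of all genes tested, and lines at 2-fold and 4-fold. Bub1b at 1.93 lies closest to 4-fold from NGO to FGO, and from GO1 to GO2 the highest value is 0.76, of Cdc20.

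Ordered by RPKM, Bub1b came first in every library. In NGOs it was followed by Aurka, Ttk, Mad2l1, Bub1, Fzr1, Cdc20, Fbxo43, Aurkb and Aurkc, and no ratio of neighbours in that order had an interval that includes 1, either from the counts as recovered or with counts divided by 2. With counts divided by 4 the intervals of Aurka to Ttk (0.985 to 1.10), Mad2l1 to Bub1 (0.988 to 1.10) and Aurkb to Aurkc (0.964 to 1.402) did. In FGOs Ttk, Aurka, Mad2l1, Bub1, Fbxo43, Cdc20, Aurkc, Fzr1 and Aurkb followed. Here the ratio of Aurkc to Fzr1 (0.969 to 1.10) did not differ from 1 beyond counting error, nor did that of Fbxo43 to Cdc20 with counts divided by 2 (0.997 to 1.10). At GO1 this held for Mad2l1 to Ttk (0.984 to 1.03) and Bub1 to Aurka (0.989 to 1.04), and at GO2 for none, also with counts divided by 4. The highest level was 11.1 times the lowest in NGOs and 71.0 times in FGOs. All 10 genes lay above the median of detected genes in every library, and their lowest percentile was 56.0, for Aurkb at GO1. It also held among all listed genes, but not in the other alternatives. Among genes with at least 20 counts 2 of the 40 values lay below the median, those of Aurkb at GO1 (percentile 46.5) and in FGOs, and in counts not divided by length 1 did, that of Aurkc in NGOs (46.1).

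The pathway was read from 8 lists with 62 genes, of which 60 are in the table (Anapc15 and Bora are not), the 10 genes above included. From NGO to FGO 4 of the 60 rose and 2 fell by 2-fold, that is 6.67% and 3.33% against 17.7% and 16.7% over all genes tested, and the median log2 change was 0.07. The genes that rose were Bub1b and Fbxo43, already counted above, and Ccnb1 and Gsg2, and those that fell were Ube2c and Anapc13. Without the 10 genes, 2 of 50 rose and 2 fell, that is 4% each, and the median was -0.003. Ccnb1, the cyclin B1 gene and an APC/C target, had 49.3 RPKM in NGOs, 91.6 at GO1, 113 at GO2 and 124 in FGOs, with a log2 change of 1.39 (1.36 to 1.41) from NGO to FGO. It was higher at each later stage. Gsg2 encodes haspin, the kinase that marks histone H3 for the chromosomal passenger complex, and it was at 12.3, 24.5, 30.7 and 30.7 RPKM in NGOs, GO1, GO2 and FGOs. Its log2 change was 1.37 (1.29 to 1.44), with NGOs the low library.

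The APC/C itself has a scaffold, a catalytic core and adaptor subunits, of which 13 were measured. Their median log2 change was -0.22 from NGO to FGO and -0.13 from GO1 to GO2, and they summed to 239 RPKM in NGOs, 206 at GO1, 196 at GO2 and 189 in FGOs. Anapc10 had the highest change from NGO to FGO (0.42) and Anapc11 from GO1 to GO2 (0.55). Anapc13 had the lowest in both pairs and was at 12.8 RPKM in NGOs, 12.4 at GO1, 6.50 at GO2 and 4.69 in FGOs. Among the ubiquitin-conjugating enzymes, Ube2c, which starts ubiquitin chains on APC/C substrates, fell in both pairs, by 1.39 on the log2 scale from NGO to FGO and by 1.07 from GO1 to GO2, and was the only one of the 60 genes past 2-fold in the latter, that is 1.67% falling and 0 rising against 2.85% and 6.88% over all genes tested. It was at 26.3 RPKM in NGOs, 28.5 at GO1, 13.9 at GO2 and 9.70 in FGOs, while Ube2s, which extends the chains, stood at 249, 197, 208 and 299 RPKM.

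The spindle checkpoint list of 12 genes had a median log2 change of 0.03 from NGO to FGO and of 0.12 from GO1 to GO2. Bub1b was its highest gene in both pairs, Mad2l1bp its lowest from NGO to FGO (-0.91) and Mad2l1 its lowest from GO1 to GO2. Of the 8 Aurora kinase and partner genes, whose medians were 0.12 and -0.02, Gsg2 was the highest in both pairs, Aurkb the lowest in the first and the survivin gene Birc5 in the second (-0.36). The 10 outer kinetochore genes, which tie microtubules to chromosomes, had medians of -0.20 and -0.22, with Dsn1 the highest in both pairs (0.38 and 0.24) and Pmf1 (-0.75) and Spc25 (-0.43) the lowest. The 10 genes of APC/C targets and cohesion release had medians of 0.57 and 0.17. Besides Ccnb1, Ccna2 was the lowest of them from NGO to FGO (-0.16), Ccnb2 the highest from GO1 to GO2 (0.39) and Sgol2 the lowest (-0.23). The 10 markers of proliferating cells, which FGOs and NGOs also held, summed to 198 RPKM in NGOs, 163 at GO1, 164 at GO2 and 191 in FGOs, with Mcm5 the most abundant in NGOs at 45.3 RPKM. Mcm2, Mcm3, Mcm5, Mcm6, Cdt1 and E2f1 were lower in both growing-oocyte libraries than in NGOs and FGOs, whereas Mki67, Top2a and Ccne1 were higher. Foxm1 was in neither group, at 4.47, 5.86, 6.48 and 6.63 RPKM in NGOs, GO1, GO2 and FGOs. Mki67 was at 12.1, 40.1, 32.2 and 12.7 RPKM in NGOs, GO1, GO2 and FGOs.

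Across the 4 libraries, Mad2l1 and Bub1 were higher in both growing-oocyte libraries than in NGOs and FGOs, as 19.9% of 14831 genes were, and Fzr1, Cdc20 and Aurkb were lower in both, as 31.2% were. For Cdc20 the ratio of GO2 to NGOs was 0.987 (0.941 to 1.04), which does not differ from 1 beyond counting error, and for Aurkb that of GO2 to FGOs, 0.905, reached 1 with counts divided by 2 (0.814 to 1.005). In RPKM values alone Bub1b and Fbxo43 were higher at every step, as 11.9% of genes were, but for Fbxo43 the ratio of GO2 to GO1 was 1.01 (0.983 to 1.03), and none of the 10 was lower at every step, as 10.1% were. These patterns cross protocols, and base composition moved with them over all genes. In the 20% of genes with the lowest GC content, 39.1% were higher in both ScriptSeq libraries and 7.16% lower, whereas in the 20% with the highest GC content 4.96% were higher and 61.5% lower. Fzr1 is among those of highest GC content (59.9%), Cdc20 and Aurkb are in the next 20% (55.6% and 52.5%), and Mad2l1 and Bub1 are among the lowest (40.1% and 41.0%). Fbxo43 (42.6%) and Ttk (43.0%) are among the lowest too, without being higher in both ScriptSeq libraries. The log2 ratio of summed RPKM in the ScriptSeq libraries to that in the others was 0.16 for Fbxo43 and 0.33 for Ttk. For Bub1 and Mad2l1 it was 0.13 and 0.65. Bub1b, Aurka and Aurkc are in the middle 20% (50.4%, 51.4% and 51.6%), where the median log2 ratio of ScriptSeq to other libraries was -0.19. That ratio was -0.10 for Bub1b and -0.29 for Aurka, but 0.34 for Aurkc, and it was -0.84 for Aurkb. Changes within a protocol also went with GC content. From the lowest to the highest 20%, the median log2 change ran from -0.18 to 0.14 from GO1 to GO2 and from 0.09 to -0.17 from NGO to FGO. The part of GC content in these patterns and changes was not tested.

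For each of the 10 genes, the gene with the most similar pattern was sought among 10742 others with at least 100 counts in every library, by the distance between centred log2 RPKM values over the 4 libraries. Bub1b was nearest to Apba2 (distance 0.11), which had 1.36, 2.38, 3.62 and 5.16 RPKM in NGOs, GO1, GO2 and FGOs, and Bub1 was nearest to Srpk1 (0.02). For Aurkb it was Blvra (0.02) and for Aurkc Tmem72 (0.02). Bub1b had the fewest genes within a distance of 0.2 (20 genes) and Bub1 the most (412).

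Promoter sequences from RefSeq (build GRCm38.p6), 250 bases before and 50 bases after the gene start, were matched for 8 of the 10 genes, with none for Fbxo43 and Aurkb. The cell cycle homology region motif TTTGAA was found on either strand in 4 of the 8 (Cdc20, Bub1b, Ttk and Aurka) and in 17.9% of all 32851 promoters. CCAAT was found on either strand in 7 of the 8, all but Mad2l1, and in 37.4% of all promoters, and the motif pair was held by the same 4 genes and by 6.95% of all promoters. The homeobox motif TAATTG was in none of the 8 and in 8% of all promoters. A match of letters is a description and not a site. The log2 change from NGO to FGO was above 0 for these 4 genes, and also for Mad2l1 and Aurkc among the other 4. That of Bub1, also among the other 4, did not differ from 0 beyond counting error (-0.05 to 0.01). A link between motifs and changes was not tested. The promoters that hold both motifs are shown to give the motifs in their context, with TTTGAA and CCAAT, or their reverse complements, in capitals. They lie at chr4:118437294-118437593 (minus strand), chr2:118597961-118598260 (plus strand), chr9:83834439-83834738 (plus strand) and chr2:172370521-172370820 (minus strand).
Cdc20: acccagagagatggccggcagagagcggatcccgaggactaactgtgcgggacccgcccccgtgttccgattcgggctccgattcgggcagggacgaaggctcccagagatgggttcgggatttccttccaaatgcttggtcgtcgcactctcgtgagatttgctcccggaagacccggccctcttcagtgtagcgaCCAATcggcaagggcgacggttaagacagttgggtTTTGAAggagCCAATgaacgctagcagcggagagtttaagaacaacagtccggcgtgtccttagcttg
Bub1b: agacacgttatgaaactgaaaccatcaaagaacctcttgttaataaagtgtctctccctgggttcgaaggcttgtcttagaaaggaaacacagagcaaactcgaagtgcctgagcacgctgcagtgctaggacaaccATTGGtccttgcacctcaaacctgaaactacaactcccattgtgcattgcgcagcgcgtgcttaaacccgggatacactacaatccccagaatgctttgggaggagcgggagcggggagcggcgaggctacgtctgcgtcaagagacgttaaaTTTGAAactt
Ttk: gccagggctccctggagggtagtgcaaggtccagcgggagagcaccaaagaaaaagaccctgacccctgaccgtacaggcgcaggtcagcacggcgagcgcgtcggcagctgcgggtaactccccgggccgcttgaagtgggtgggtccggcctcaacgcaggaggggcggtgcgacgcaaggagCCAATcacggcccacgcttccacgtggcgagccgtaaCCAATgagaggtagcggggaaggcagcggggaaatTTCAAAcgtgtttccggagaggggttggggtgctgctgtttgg
Aurka: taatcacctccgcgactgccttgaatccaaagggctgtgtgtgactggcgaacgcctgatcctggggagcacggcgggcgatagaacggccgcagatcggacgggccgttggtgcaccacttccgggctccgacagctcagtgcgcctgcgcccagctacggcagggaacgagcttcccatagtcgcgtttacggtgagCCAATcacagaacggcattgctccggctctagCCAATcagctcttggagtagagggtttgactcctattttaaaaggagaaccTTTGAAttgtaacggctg

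In maturing oocytes, the cytoplasmic polyadenylation element near the end of an mRNA governs when its tail is lengthened. In the last 100 bases of the principal coding transcript in GENCODE (GRCm38), TTTTAT or TTTTAAT was found for 5 of the 10 genes, Cdc20, Bub1b, Aurka, Aurkb and Aurkc, and for 16.1% of 22342 genes. These ends need not be those of the counted genes. For Aurkc the window with the motif (chr7:7003038-7003067) lies beyond the listed gene end (7002945). The GENCODE transcript of Mad2l1, at 7557 bases, is longer than the listed gene. The hexamer AATAAA or ATTAAA was in the last 40 bases for 7 of the 10 and for 67.8% of those genes. Windows of 30 bases with both are shown for 3 genes, with all copies of the motifs in capitals (for Cdc20, TTTTAT occurs in overlapping copies), at chr4:118432916-118432945 (minus strand), chr2:118641555-118641584 (plus strand) and chr11:69051618-69051647 (plus strand), each in the last exon. The libraries did not measure tail length.
Cdc20: cttgtTTTTATTTTATtttttctAATAAAg
Bub1b: tcactgtgtaTTTTATAATAAAatagtttt
Aurkb: aagaacaacaTTTTATAATAAAgtcttaaa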

How the data were processed

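The authors deposited 1 value per gene and library as RPKM on a linear scale, although the table is named for read counts. Per the submitters' processing notes, reads were trimmed with Trim Galore 0.2.8 and mapped to GRCm38 with TopHat2 2.0.9. The counting annotation and strand setting are not given in the sources used here. Counts were recovered as the whole numbers that RPKM, an exon length and a fixed step per library give. Of the values of genes with 1 exon, 470 of 473 in NGOs, the lowest share of the 4 libraries, came out whole (within 0.004 of a count, plus a share for the rounding of large values). The exon length was the GENCODE exon union for 7 of the 10 genes and the smallest length that gave whole counts for Mad2l1, Ttk and Aurkc, whose counts may be too small by a common factor in all libraries, which leaves RPKM and ratios as they are. Changes are log2 ratios of recovered counts with a prior count of 1. Libraries were scaled with the mean log ratio after trimming (30% of ratios and 5% of expression at each end), and a gene needed 20 counts over the pair. Detected genes had at least 3 counts. With 1 library per stage there is no replicate check and no p-value. Alternatives were other scalings, RPKM with a pseudocount of 0.1 or 1, a prior count of 5, other count filters and other backgrounds for percentiles. All 10 genes were named, any gene of the lists could be, and for each list the largest rise and fall in each pair. The members and lists were chosen with earlier results of these data known. Python 3.11.15, numpy 2.4.6, pandas 2.3.3, scipy 1.17.1 and matplotlib 3.10.9 were used.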

Additional observations from a re-analysis of the deposited data

How the results depend on the processing

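The count of 0 genes past 4-fold held in both pairs under all 7 alternatives, as did the count of 0 past 2-fold from GO1 to GO2. From NGO to FGO, scaling by library total lowers the median of all genes by 0.10 on the log2 scale to -0.11, and then Bub1b rose and Aurkb fell by 2-fold (1 and 1, against 2 and 0), since Fbxo43, Aurkb and Aurkc lie close to 2-fold. The median of ratios gave 3 rises, with Aurkc added. With RPKM and a pseudocount of 1, 1 gene (Bub1b) was past 2-fold. Of all genes tested, 5.82% rose and 4.91% fell by 2-fold at that setting. For the pathway lists the rises and falls were 4 and 2. They were 3 and 4 under library total, and 5 and 2 under the median of ratios. Of all genes tested, 17.7% rose and 16.7% fell by 2-fold. Under library total these shares were 16.3% and 19.0%, and under the median of ratios 18.2% and 16.2%. From GO1 to GO2 the pseudocount of 1 left 0 list genes past 2-fold, against 0.369% rising and 0.203% falling over all genes tested. The sign of the small change of Bub1 from NGO to FGO turned under the median of ratios, and those of Fbxo43, Bub1 and Aurkc from GO1 to GO2 under library total (Fbxo43 also with the pseudocount of 1). The lowest percentile of the 10 genes, 56.0, was 71.0 among all listed genes, 46.5 among genes with at least 20 counts, and 46.1 in counts not divided by length, where Aurkc in NGOs replaced Aurkb at GO1. With counts divided by 2 or 4, chosen after seeing the data, the neighbours in the order of NGOs whose ratio interval includes 1 were 0 and 3 in place of 0, and 2 and 2 in place of 1 in FGOs, and with 4 the intervals of Fbxo43 and Cdc20 from NGO to FGO included 2-fold. These shifts follow from how each alternative is built. No paired analysis was possible because each stage had 1 library. Levels also depend on the exon length behind RPKM, and stage and protocol cannot be told apart.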

Other observations

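Partners of the 10 genes can be set against them within a library, per length. Birc5, which encodes the survivin subunit of the chromosomal passenger complex, was at 39.3 RPKM in NGOs, 74.4 at GO1, 59.4 at GO2 and 43.6 in FGOs, and its ratio to Aurkb was 6.33 in NGOs and 31.1, 21.5 and 14.3 at GO1, GO2 and FGOs. Bub3, the partner of both BUB1 and BUBR1, was at 38.5, 21.6, 23.9 and 35.9 RPKM in the same order. Its ratio to Bub1b was 0.651 in NGOs, 0.199 at GO1, 0.161 at GO2 and 0.166 in FGOs, and its ratio to Bub1 was 1.28, 0.664, 0.754 and 1.25. The ratio of Mad2l1 to Mad1l1, whose product anchors MAD2 at kinetochores, was 1.71 in NGOs and 1.90 in FGOs, and 3.74 at GO1 and 2.35 at GO2. The ratio of Ube2s to Ube2c was 9.47 in NGOs, 6.90 at GO1, 14.98 at GO2 and 30.8 in FGOs. These ratios carry no replicate error, and values of GO1 and GO2 against NGOs and FGOs also differ in protocol.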
